A study of Mus musculus with 6 samples.

Results

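Cytochrome P450 enzymes of sterol, bile acid, steroid and retinoid metabolism were examined in the lateral septum (LS), a limbic brain region, of mice given the antipsychotic olanzapine. They were 10 genes of the deposited counts and FPKM values, out of 35415 genes, and they comprised Cyp46a1, Cyp51, Cyp27a1, Cyp7b1, Cyp39a1, Cyp11a1, Cyp19a1, Cyp26b1, Cyp1b1 and Cyp7a1. They were taken by symbol, with earlier results of these data known. Wild-type female C57BL/6 mice, about 8 weeks old at arrival and kept for 1 week before the diets began, received maintenance feed with olanzapine at 50 mg/kg or the same feed without the drug for 12 weeks. Septal tissue of 3 mice was combined for each library and each diet had 3 such pools (n = 3), which hides how single mice varied. In bulk tissue, fewer cells of a type and less RNA per cell cannot be told apart.

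Brain cholesterol is made locally, because lipoproteins of the blood do not cross the blood-brain barrier, and it is removed chiefly after a P450 of neurons adds a hydroxyl group to its side chain. The product, an oxysterol, can leave the brain and can be hydroxylated further on the way to bile acids. Other P450s of the same superfamily start steroid synthesis from cholesterol, turn androgens into estrogens, or clear retinoic acid, so the 10 genes cover the synthesis, the removal and the signalling products of sterols and related lipids.

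The sequences before the start sites of Cyp46a1, Cyp51 and Cyp27a1 are shown because these genes are the most abundant member, the member that makes cholesterol and the other member whose groups did not overlap. They are RefSeq windows on GRCm38.p6, each ending 1 base before the annotated start and written 5′ to 3′ on the strand of the gene. Those of Cyp46a1 (chr12:108334066-108334315, plus strand) and Cyp27a1 (chr1:74713285-74713534, plus strand) hold 250 bases. For Cyp51 (chr5:4104747-4104947, minus strand) the 49 bases nearest the start are left off, since GENCODE M21 annotates them as transcribed. Capitals mark matches on either strand to the GC box GGGCGG, the CCAAT box CCAAT, the TATA box TATAAA and a consensus of the sterol regulatory element.
Cyp46a1: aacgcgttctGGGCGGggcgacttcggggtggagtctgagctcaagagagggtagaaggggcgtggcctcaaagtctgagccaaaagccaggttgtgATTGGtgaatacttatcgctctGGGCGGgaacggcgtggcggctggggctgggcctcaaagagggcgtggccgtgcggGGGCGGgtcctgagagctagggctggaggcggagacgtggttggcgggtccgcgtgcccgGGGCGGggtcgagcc
Cyp51: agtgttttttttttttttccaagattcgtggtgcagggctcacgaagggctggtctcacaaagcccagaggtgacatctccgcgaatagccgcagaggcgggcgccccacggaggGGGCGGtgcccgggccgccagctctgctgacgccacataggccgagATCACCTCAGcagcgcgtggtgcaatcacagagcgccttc
Cyp27a1: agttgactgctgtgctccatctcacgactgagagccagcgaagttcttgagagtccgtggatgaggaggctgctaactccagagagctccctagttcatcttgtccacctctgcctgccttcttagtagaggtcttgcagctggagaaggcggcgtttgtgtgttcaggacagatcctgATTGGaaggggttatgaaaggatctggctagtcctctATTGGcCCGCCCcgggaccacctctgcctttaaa

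Over the full 250 bases, the Cyp46a1 window held 4 GC boxes, 1 CCAAT box and 23 CpG pairs, with a GC content of 67.6% against a median of 52.4% over 32851 RefSeq windows of the same length. The Cyp51 window held 1 GC box, 1 CCAAT box and 1 match to the sterol regulatory element, which began 89 bases before the start. That element, the site read by the cholesterol-sensing factor SREBP, had a match in 0.645% of all windows. The Cyp27a1 window held 1 GC box and 2 CCAAT boxes, which occurred in 32.7% and 33.8% of all windows. TATAAA, present in 12.4% of windows, was in none of these 3. A match of letters describes the sequence and is not evidence of binding. RefSeq windows were matched for 7 of the 10 members, and none was matched for Cyp7b1, Cyp39a1 and Cyp7a1 in the set of windows used.

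The libraries held between 38208153 and 39868872 counts on genes. Markers of LS neurons were measured in all pools, with 11 of 11 genes of the list passing the filter on low counts and a summed level of 440 to 541 FPKM in control pools and 341 to 482 FPKM in olanzapine pools. The list includes Gad1, Gad2 and Slc32a1, with means of 134, 80.0 and 84.0 FPKM, which inhibitory neurons of other regions share. Prlr is also on the choroid plexus list. The sum is therefore not particular to LS neurons. FPKM is a read count scaled to the length of the gene and the depth of the library, and only in this unit are levels of different genes compared here. Olanzapine pool 1 stood apart, with 291 FPKM summed over 8 genes of cortical glutamatergic neurons against 10.6 to 33.0 FPKM in the other 5 pools, and it had the lowest sum of LS neuron markers and the highest sum of neuron markers. Choroid plexus markers ranged from 93.1 to 6079 FPKM over the pools of both groups. A list of 18 hepatocyte markers without Ttr summed to 8.64 to 14.7 FPKM in control pools and 156 to 203 FPKM in olanzapine pools. The part of these signals in the results that follow was not tested.

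**Figure D1:**
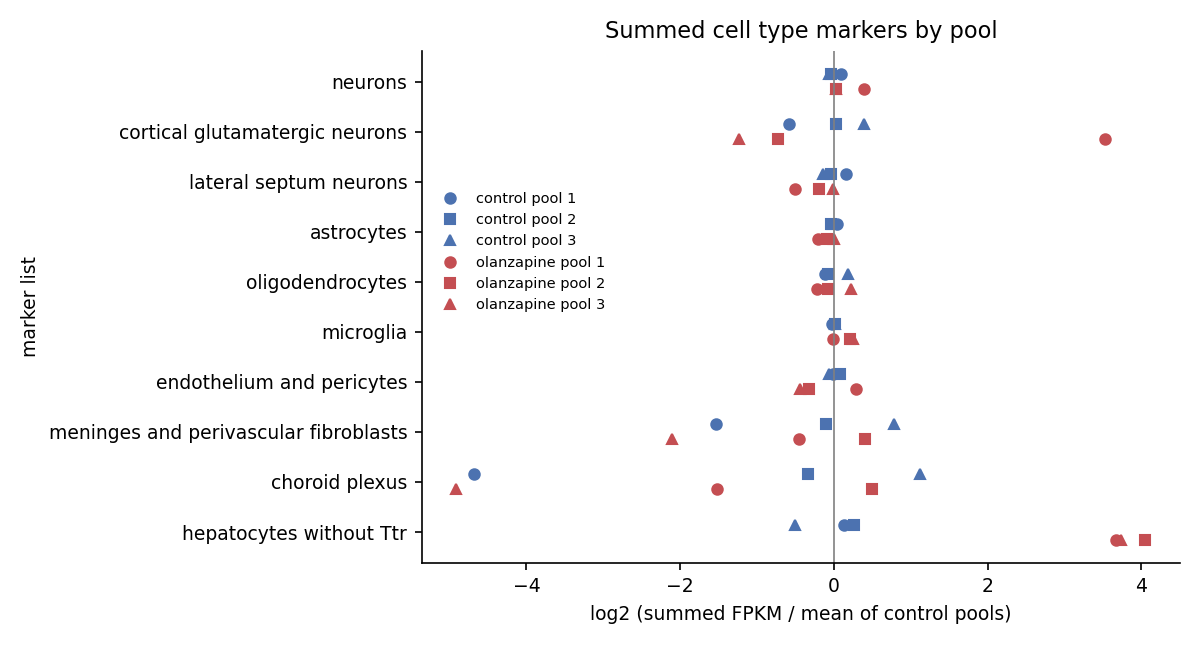
Log2 of the summed FPKM of each cell type marker list relative to the mean of the control pools, with 1 point per pool, control in blue and olanzapine in red, and the shape giving the pool number. Cortical glutamatergic markers stand at 291 FPKM in olanzapine pool 1 and at no more than 33.0 FPKM elsewhere, and hepatocyte markers without Ttr do not overlap between the groups.

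Of the 10 members, 9 passed the filter on low counts and were tested among 17255 genes, and Cyp7a1 did not. Normalized counts are counts scaled by library with edgeR's TMM factors. A call required a Benjamini-Hochberg adjusted p under 0.05 in edgeR's quasi-likelihood test together with a log2 fold change larger than 1 in either direction. Of the 9, 0 were called, against 1.01% of all tested genes, of which 0.95% were called higher and 0.058% lower. At an adjusted p under 0.05 without the limit on the fold change, the count was also 0 of 9, against 2.32% of all genes, and DESeq2 placed 1 member, Cyp46a1, under that threshold. At an unadjusted p under 0.05 there were 3 members, Cyp46a1, Cyp27a1 and Cyp11a1, where 17.6% of all genes stood. By sign alone, 5 members were higher and 4 lower in the olanzapine group, with a median log2 fold change of 0.10 against 0.0039 over all tested genes. The normalized counts of the groups did not overlap for 2 members, both higher with olanzapine. Over all tested genes, 13.3% were separated in that direction and 24.3% in either.

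**Figure D2:**
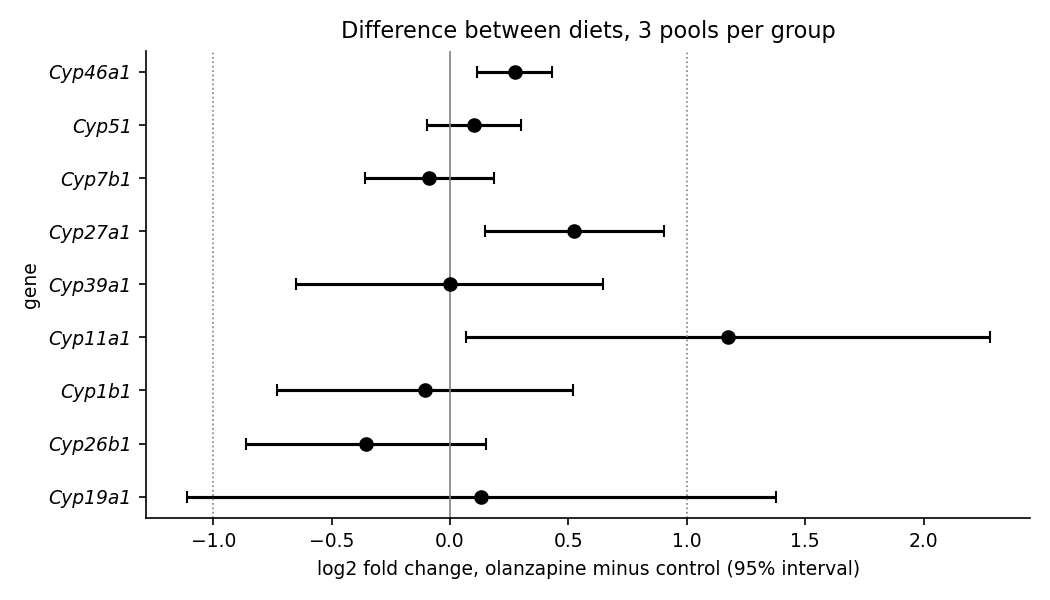
Log2 fold change of olanzapine against control for the 9 tested members, with 95% intervals from edgeR's quasi-likelihood fit and dotted lines at the limit of 1 in size that a call required. Intervals of Cyp46a1, Cyp27a1 and Cyp11a1 exclude 0 before adjustment over all genes, and no member passed the adjusted threshold.

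Levels of the members spanned a wide range. By mean FPKM over the 6 pools the order was Cyp46a1 (53.5), Cyp51 (14.7), Cyp7b1 (4.17), Cyp27a1 (3.04), Cyp39a1 (0.706), Cyp11a1 (0.541), Cyp1b1 (0.419), Cyp26b1 (0.205), Cyp19a1 (0.138) and Cyp7a1 (0.00103). Only 4 members averaged over 1 FPKM and 6 were under it. Between neighbours in this order, the ranges over pools overlapped for Cyp7b1 and Cyp27a1, for Cyp39a1 and Cyp11a1, for Cyp11a1 and Cyp1b1 and for Cyp26b1 and Cyp19a1, so the order is not set beyond the spread there, although Cyp7b1 was above Cyp27a1 in 6 of 6 pools. Cyp46a1 was 3.65 times as abundant as Cyp51 and made up 66.3 to 70.7% of the summed FPKM of the members. Among 100 genes with a symbol of Cyp and a digit, of which Cyp4x1os is an opposite-strand transcript and no P450, Cyp46a1 ranked 1 by mean FPKM, Cyp51 ranked 3, Cyp7b1 ranked 7 and Cyp27a1 ranked 10. The members together held 46.9 to 51.6% of the FPKM summed over these genes in each pool.

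**Figure D3:**
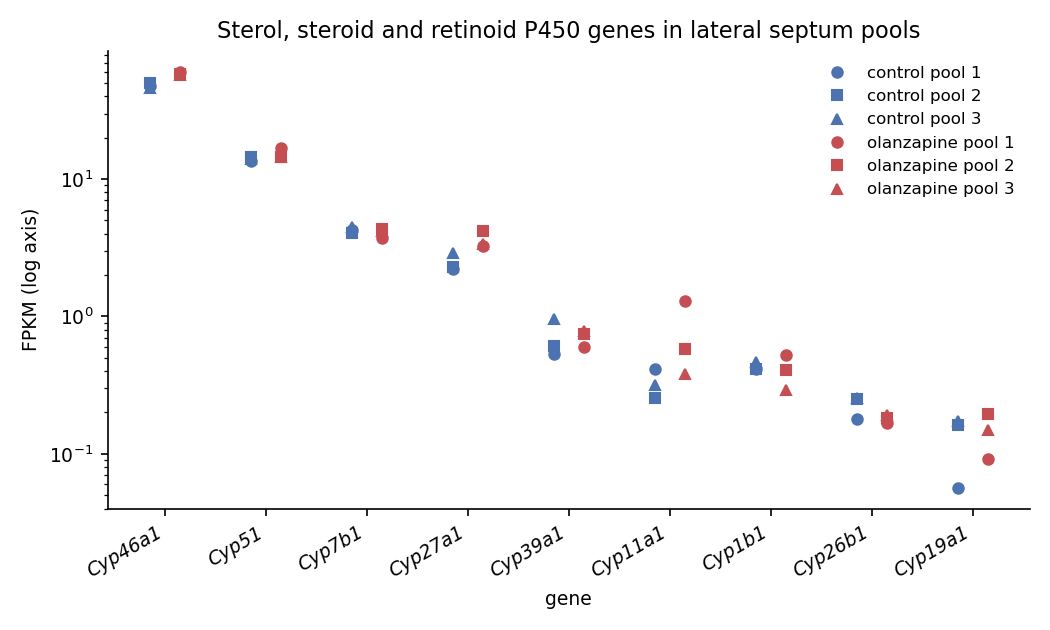
FPKM of the 9 tested members in the 6 pools on a log axis, ordered by mean level, with control pools in blue and olanzapine pools in red. Cyp46a1 lies between 46.3 and 60.7 FPKM, above all other members in every pool, and Cyp7a1, with 1 count in all, is not drawn.

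Cyp46a1, the neuronal enzyme that hydroxylates cholesterol for removal from the brain, lies on chromosome 12 (GRCm38, chr12:108334381-108362234, plus strand). Its normalized counts were 5527, 5686 and 5250.2 on the control diet and 6972, 6402 and 6517 on olanzapine, and its FPKM was 48.0 ± 1.80 (SD, n = 3) and 58.9 ± 1.57 (SD, n = 3). Every olanzapine pool stood above every control pool, and olanzapine pool 1 was the highest. The fold change was 1.21 (95% interval 1.08 to 1.35), and the log2 fold change was 0.27 ± 0.068 (SE), at an adjusted p of 0.0930 in edgeR with Benjamini-Hochberg adjustment. DESeq2 gave an adjusted p of 0.0335, and limma on log2(FPKM + 1) without a filter gave 0.0438. Without olanzapine pool 1 the log2 fold change was 0.23 and the edgeR adjusted p 0.111. The summed level of 10 neuron markers was 1519 to 1690 FPKM in control pools and 1611 to 2068 FPKM in olanzapine pools. The Cyp46a1 FPKM was also taken as a percentage of that sum, a ratio chosen after the values were seen. It was 2.83, 3.25 and 3.05% in controls and 2.93, 3.63 and 3.57% in olanzapine pools. Those percentages overlapped through olanzapine pool 1, and the other 2 olanzapine pools lay above all controls. Pool 1 had the highest neuron marker sum and the raised cortical markers, whose part in the percentages was not tested. The neuron markers of that pool did not move together. Its counts of Snap25, the marker of highest FPKM in the list, were 79786 against 46639 to 50159 in the other pools. Its Map2 counts, 43103, were below those of the controls, 45446 to 56935.

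Cyp51, the sterol demethylase that acts on lanosterol in cholesterol synthesis, lies at chr5:4081145-4104746 on the minus strand, and 166 of its exonic bases overlap Akap9 on the other strand, where reads of the 2 genes cannot be told apart unless counting used strand. The normalized counts were 2356, 2489 and 2378 on the control diet and 2888, 2382 and 2473 on olanzapine. Olanzapine pool 1 was the highest and the other 2 olanzapine pools lay within the control range. The fold change of 1.07 (95% interval 0.935 to 1.23) did not pass (adjusted p = 0.591 by edgeR with Benjamini-Hochberg adjustment), and without olanzapine pool 1 the log2 fold change was 0.011. Of 11 other enzymes of cholesterol synthesis, of which Sqle and Lss act before lanosterol and the rest after it, 11 passed the filter, 0 passed an adjusted p under 0.05 and 8 were higher and 3 lower by sign, with a median log2 fold change of 0.02. Msmo1, a methylsterol oxidase, was measured at 27.9 FPKM there and had a log2 fold change of 0.20 ± 0.086 (SE), with an adjusted p of 0.271 by edgeR's quasi-likelihood test.

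Cyp27a1, the mitochondrial sterol hydroxylase of macrophages, liver and other tissues, lies at chr1:74713574-74737892 on the plus strand. Its normalized counts were 211, 217 and 271 on the control diet and 310.2, 382 and 313 on olanzapine, and its FPKM was 2.47 ± 0.369 (SD, n = 3) against 3.61 ± 0.532 (SD, n = 3). All olanzapine pools were above all control pools, with olanzapine pool 2 the highest and control pool 3 the nearest of the controls. The fold change was 1.44 (95% interval 1.11 to 1.87), and the adjusted p of 0.156 in edgeR with Benjamini-Hochberg adjustment missed the threshold. Over 15 alternative settings the log2 fold change was 0.411 to 0.655 and the adjusted p 0.0841 to 0.377. Microglial markers summed to 247 to 253 FPKM in controls and 249 to 299 FPKM in olanzapine pools, and Cyp27a1 as a percentage of that sum was 0.896, 0.911 and 1.14% against 1.31, 1.46 and 1.12%, which overlapped. As a percentage of the oligodendrocyte marker sum it was 0.130, 0.132 and 0.138% against 0.206, 0.241 and 0.155%, which did not overlap. These ratios were chosen after the values were seen. The hepatocyte signal described above also differed between the groups, and its part in the Cyp27a1 difference was not tested.

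**Figure D4:**
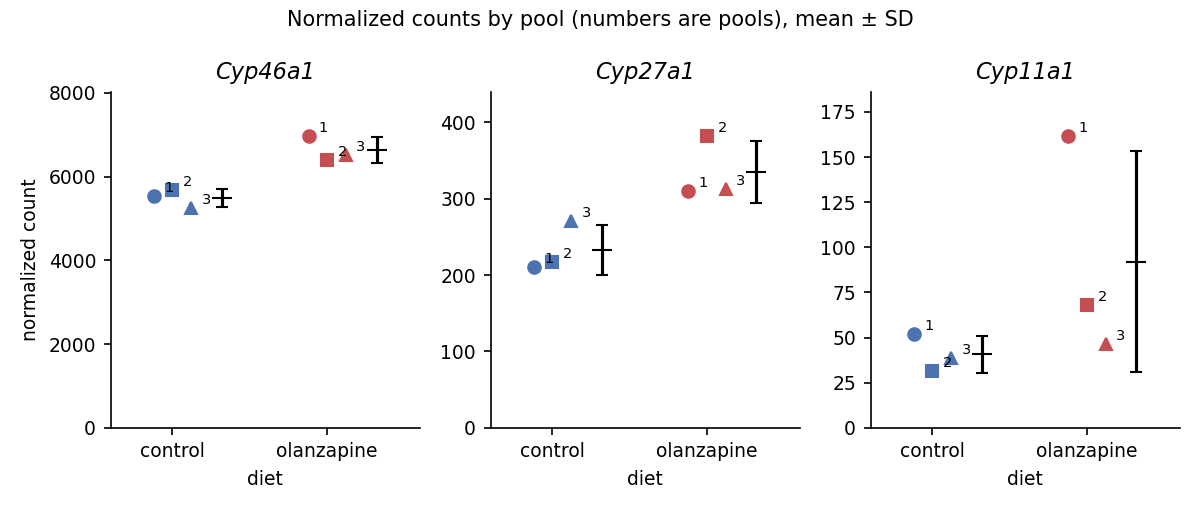
Normalized counts of Cyp46a1, Cyp27a1 and Cyp11a1 in the 3 control and 3 olanzapine pools, on axes that start at 0, with the mean ± SD of each group as a bar beside its points. The groups do not overlap for Cyp46a1 and Cyp27a1, and for Cyp11a1 olanzapine pool 1, at 162 normalized counts, stands above the other 5 pools.

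Cyp7b1 and Cyp39a1 hydroxylate oxysterols, Cyp39a1 that of the neuronal pathway, and Cyp7b1 also acts on neurosteroids. Cyp7b1 lies at chr3:18071950-18243338 on the minus strand and had normalized counts of 414, 385 and 428 in controls and 359, 400.0 and 396 in olanzapine pools. These overlapped, and the fold change was 0.941 (95% interval 0.780 to 1.14). Cyp39a1 lies at chr17:43667425-43751431 on the plus strand and had normalized counts of 65.9, 74.0 and 117 in controls and 74.2, 86.9 and 95.5 in olanzapine pools, with control pool 3 the highest. Its fold change was 0.999 with a wide 95% interval of 0.638 to 1.56, and its sign turned in 8 of 15 alternatives. Both had an adjusted p above 0.05 in edgeR's quasi-likelihood test (0.754 for Cyp7b1 and 0.998 for Cyp39a1).

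Cyp7a1, the first enzyme of the liver's own bile acid pathway (chr4:6265612-6275633, minus strand), had counts of 0, 0 and 0 on the control diet and 0, 0 and 1 on olanzapine, each 0 allowing up to 3 counts, or 0.0752 CPM in control pool 1. It was near the limit of detection in all pools, including those in which the hepatocyte markers were above the control range. Cyp8b1, another hepatic P450 of bile acid synthesis, had 1, 0 and 0 counts against 1, 5 and 4. Of 13 other enzymes of bile acid and oxysterol metabolism, 10 passed the filter, 0 passed an adjusted p under 0.05 and 8 were higher and 2 lower by sign, with a median log2 fold change of 0.08. Scp2, a sterol carrier (35.4 FPKM), and Hsd17b4, a peroxisomal enzyme (24.7 FPKM), had the highest levels, with log2 fold changes of 0.06 and -0.03. The widest differences, picked out after their values were seen, were those of Cyp3a11, Baat and Slc27a5, liver genes of bile acid metabolism with log2 fold changes of 2.19, 1.96 and 1.72 and edgeR adjusted p of 0.117, 0.149 and 0.180. Their counts in controls were low, at 5 to 28, 2 to 9 and 6 to 19, so that the olanzapine pools helped them pass the filter and enter the tally, from which nothing is read. Cyp3a11 and Baat are also on the hepatocyte list.

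Cyp11a1, the mitochondrial enzyme that cuts the cholesterol side chain to make pregnenolone, lies at chr9:58006411-58027023 on the plus strand, where 145 exonic bases overlap the lincRNA Gm17322 on the same strand, so strand would not separate reads of the 2 there. Normalized counts were 52.0, 31.6 and 38.7 in controls and 162, 68.2 and 46.2 in olanzapine pools. Olanzapine pool 1 was 2.37 times as high as the next highest pool, and the groups overlapped. The fold change of 2.25 (95% interval 1.05 to 4.85) gave an adjusted p of 0.255 by edgeR with Benjamini-Hochberg adjustment. Without olanzapine pool 1 the log2 fold change fell from 1.17 to 0.49, with an adjusted p of 0.534. That pool also held the raised cortical glutamatergic markers (291 FPKM), and their part in the value was not tested.

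Cyp19a1, aromatase, which turns androgens into estrogens, lies at chr9:54165937-54268110 on the minus strand. It was scarce, with normalized counts of 6.99, 19.7 and 20.8 in controls and 11.3, 22.7 and 18.1 in olanzapine pools. The groups overlapped and the fold change of 1.10 had a 95% interval of 0.463 to 2.60. Of 24 other neurosteroid genes, 9 passed the filter, 0 passed an adjusted p under 0.05 and 6 were higher and 3 lower by sign, with a median log2 fold change of 0.10. Hsd17b10, a mitochondrial steroid dehydrogenase (33.9 FPKM), and Stard3, a cholesterol transporter (13.6 FPKM), had the highest levels, with log2 fold changes of 0.10 and 0.21. Of 7 steroid receptor genes, 7 passed the filter, 1 was higher and 6 lower by sign, and 0 passed an adjusted p under 0.05, with a median log2 fold change of -0.35. The markers of LS neurons were lower by sign in 10 of 11, with a median of -0.33, and their part in the receptor values was not tested. Pgrmc1 (225 FPKM) and Pgrmc2 (31.0 FPKM), membrane heme-binding proteins that interact with P450s, had log2 fold changes of -0.13 and 0.0043.

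Cyp26b1, a retinoic acid hydroxylase, lies at chr6:84571414-84593908 on the minus strand. Its normalized counts were 88.9, 122 and 125 in controls and 83.5, 85.9 and 93.5 in olanzapine pools. The groups overlapped through control pool 1, and the fold change of 0.782 had a 95% interval of 0.550 to 1.11 and an adjusted p of 0.449 by edgeR's quasi-likelihood test. Of 15 other retinoic acid genes, 13 passed the filter, 0 passed an adjusted p under 0.05 and 6 were higher and 7 lower by sign, with a median log2 fold change of -0.0061. Rarb, a retinoic acid receptor (10.5 FPKM), and Aldh1a1, a retinal dehydrogenase (9.89 FPKM), had log2 fold changes of 0.29 and -0.07. Rbp4, the retinol carrier of plasma, had the widest difference of the list and was picked out after its values were seen. Its counts were 164, 209 and 224 in controls and 599, 424 and 327 with olanzapine, without overlap, and its log2 fold change of 1.20 had an edgeR adjusted p of 0.0504. Over all tested genes, the normalized counts of 13.3% were separated in that direction. The hepatocyte signal also differed between the groups, and its part in the Rbp4 difference was not tested.

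Cyp1b1, a target of the aryl hydrocarbon receptor that acts on estrogens and retinoids, lies at chr17:79701537-79715061 on the minus strand. Normalized counts were 84.9, 83.9 and 94.2 in controls and 107, 79.0 and 58.3 in olanzapine pools. The olanzapine pools lay on both sides of the controls, and the fold change of 0.929 (95% interval 0.603 to 1.43) had an adjusted p of 0.879 by edgeR's quasi-likelihood test. Of 9 genes of the aryl hydrocarbon receptor pathway, 8 passed the filter and Arnt and Cyp1a2 had an adjusted p under 0.05 with the higher value on olanzapine, as 1.83% of all tested genes did. Nothing is read from the count or from any p-value of Cyp1a2, since that gene passed the filter only through the olanzapine pools. Arnt, the partner of the receptor, had 1012 ± 40.2 (SD, n = 3) normalized counts in controls and 1455 ± 129 (SD, n = 3) with olanzapine, a log2 fold change of 0.52 ± 0.087 (SE) with an adjusted p of 0.0237 by edgeR with Benjamini-Hochberg adjustment. Without any 1 pool its log2 fold change was 0.45 to 0.56 and the adjusted p 0.0325 to 0.103, and only the omission of olanzapine pool 1 left it under 0.05. Its adjusted p was 0.0527 in limma on log2(FPKM + 0.1) and 0.0691 with the replicate number as a block. Cyp1a2, a hepatic P450 and a target of the same receptor, had 2, 3 and 1 counts in controls and 13, 26 and 20 with olanzapine. With no count filter its edgeR adjusted p was 0.0597, above the threshold. Arnt2, a relative of Arnt (33.7 FPKM), had a log2 fold change of -0.02.

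Of the 90 genes of that family list outside the 10, 34 passed the filter on low counts and were tested. Of these 34, 12 were called higher and 0 lower. A gene low in controls could pass that filter through the olanzapine pools alone, and so only where it was higher there. Neither a direction nor a share of the tested genes is therefore read from this count. It is not set against that of the members. Those called were low in controls, at 0.415 FPKM or less, with Cyp2e1 the highest. The hepatocyte markers were higher in the same pools, but Cyp2e1 and Cyp2d9 are on that list too, and the part of the hepatocyte signal in these calls was not tested. Of 9 redox partners, which pass electrons to P450s or bind heme, 9 passed the filter, 0 passed an adjusted p under 0.05 and 3 were higher and 6 lower by sign, with a median log2 fold change of -0.11. Cyb5a (63.2 FPKM), the microsomal cytochrome b5 that donates electrons to P450s, had a log2 fold change of 0.13. Por, the reductase of microsomal P450s, was picked out after its values were seen and had 5028 ± 231 (SD, n = 3) normalized counts in controls and 4341 ± 232 (SD, n = 3) with olanzapine, a log2 fold change of -0.21 with an edgeR adjusted p of 0.181.

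**Figure D5:**
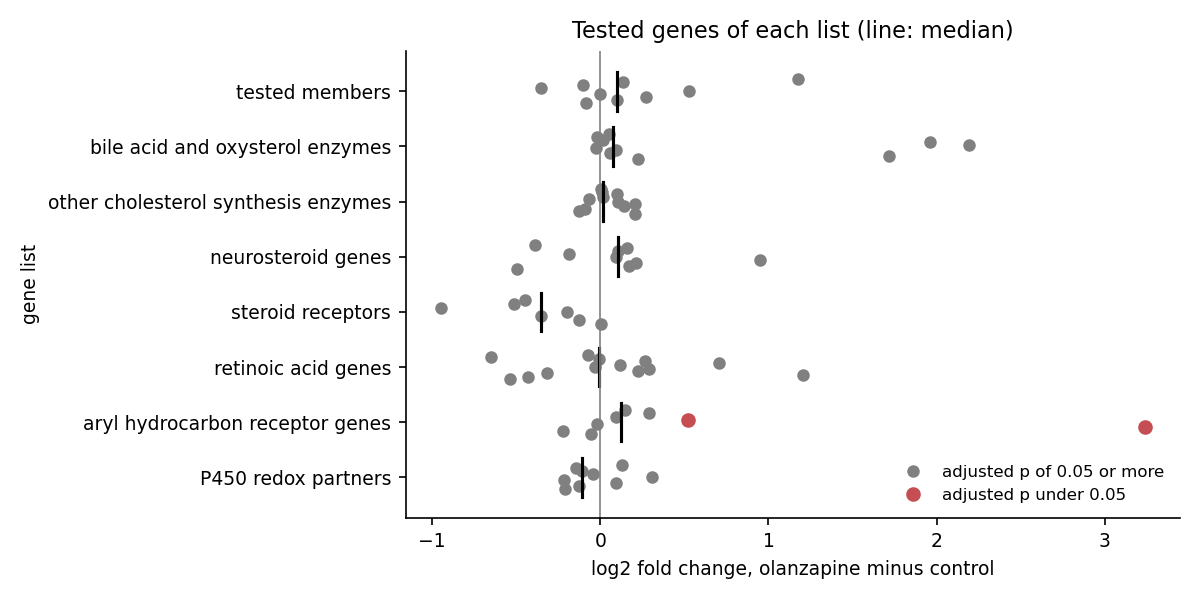
Log2 fold change of olanzapine against control for the members and each related gene list, with 1 point per tested gene and a line at the median of the list. Medians of the lists run from -0.35 to 0.12, and the red points, Arnt and Cyp1a2, had an adjusted p under 0.05. Cyp1a2 was placed by a fit to control counts of 1 to 3, and nothing is read from its position or its p-value.

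By Pearson's r of log2 CPM over the 6 pools, the genes nearest in pattern to Cyp46a1 among 14278 genes were Hdac7 and Creld1 (both 0.997) and Col16a1 (0.995). Those nearest to Cyp51 were Camkk1 and Gramd1b (both 0.999) and Otud4 (0.997), and those nearest to Cyp7b1 were Tspan18 and Pms1 (both 0.991) and Eif4b (0.984). With 6 points that share the same pools, high values were common, and 661 genes had r above 0.9 with Cyp46a1, 396 with Cyp51 and 169 with Cyp7b1. They are given as a description only.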

How the data were processed

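LS tissue of 6 pools, 3 per diet, each of 3 mice, was sequenced as paired-end RNA-seq. The authors trimmed reads with fastp, aligned them with HISAT2 to mm10 (the build in the submitters' processing notes), counted them per gene with HTSeq, and deposited raw counts and FPKM values. The strand setting and the treatment of reads matching several places are not given in the sources used here.

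After filterByExpr (minimum count 10, minimum total 15), the quasi-likelihood F test of edgeR 4.0.16 (R 4.3.3) compared the diets on TMM-scaled counts without further covariates. P-values were adjusted over 17255 genes by the Benjamini-Hochberg method. The SE was the log2 fold change divided by the square root of F, and the 95% interval came from that SE. With 3 pools per group, an exact permutation test cannot go below 0.1. The p-values set the difference between diets against the spread between pools, not between single mice. FPKM served for levels and, with limma 3.58.1 on log2(FPKM + 1) or + 0.1 and a mean FPKM of at least 0.1 or no filter, as an alternative. Other alternatives were DESeq2 1.42.0, RLE or upper-quartile factors, no count filter, a mean count of at least 50, a replicate block and leaving out each pool. Scripts were tested on simulated data. Positions came from GENCODE M21 and promoters from RefSeq, both for GRCm38.

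All 10 members are named, and of each context list the genes at an adjusted p under 0.05 and the 2 with the highest mean FPKM, with the 3 nearest in pattern to the 3 members of highest mean count. Cyp8b1, Cyp3a11, Baat and Slc27a5 of the bile acid list, Rbp4, Por, and Cyp2e1 and Cyp2d9 among the other P450s were named after their values were seen. Results of some single genes that this rule selects are not reported here. The members and lists were chosen with earlier results of these data known.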

Additional observations from a re-analysis of the deposited data

How the results depend on the processing

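The calls over all genes moved with the setting. From 174 genes called and 401 at an adjusted p under 0.05 in edgeR with TMM, DESeq2 gave 304 and 1099, the replicate block 86 and 140, limma on log2(FPKM + 1) 65 called, the same without a filter 58 called, and limma on log2(FPKM + 0.1) 267 at an adjusted p under 0.05. Leaving out 1 pool gave 85 to 176 called genes and 131 to 508 at an adjusted p under 0.05, and the omission of olanzapine pool 1 gave the highest of both. Each other omission moved both counts by over 1.5 times, to 90 and 135 without control pool 1, 85 and 131 without control pool 2, 93 and 175 without control pool 3, 97 and 176 without olanzapine pool 2 and 90 and 139 without olanzapine pool 3. For members, 0 were called in every setting, and at an adjusted p under 0.05 DESeq2 and limma on log2(FPKM + 1) without a filter each gave 1, Cyp46a1, and the others, including the block, gave 0. The cause of these shifts was not tested. Over the alternatives, Cyp46a1 kept its direction in 15 of 15 with a log2 fold change of 0.234 to 0.303. Of 134 member values, 121 kept direction and side of the threshold and 11 turned sign. Cyp39a1 turned to 0.0025 with upper-quartile factors, 0.0070 with a mean count of at least 50, 0.033 with the block, 0.015 in limma on log2(FPKM + 1) with or without the filter, 0.048 in limma on log2(FPKM + 0.1), 0.297 without control pool 3 and 0.090 without olanzapine pool 1. Cyp19a1 turned to -0.22 without control pool 1 and -0.11 without olanzapine pool 2, and Cyp1b1 to 0.085 without olanzapine pool 3. Over the omission of 1 pool, the log2 fold change ran from -0.16 to 0.297 for Cyp39a1, -0.22 to 0.386 for Cyp19a1 and -0.353 to 0.085 for Cyp1b1. On log2(FPKM + 1), which compresses low genes, Cyp11a1 had 0.37.

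Same-numbered pools did not deviate together (correlations of deviations -0.0026, 0.0616 and -0.255), so the replicate numbers were not read as a pairing. With the replicate block the adjusted p was 0.157 for Cyp46a1, 0.0691 for Arnt and 0.112 for Cyp1a2, and limma on log2(FPKM + 1) gave 0.107 for Cyp1a2. Over all alternatives the adjusted p ran from 0.000398 to 0.103 for Arnt and from 0.0123 to 0.159 for Cyp1a2. The values of Cyp1a2 are given only to show how far they moved with the setting. None is read as a result, since that gene passed the main filter only through the olanzapine pools. The intervals of Cyp19a1, Cyp39a1, Cyp1b1 and Cyp26b1 all include 0 and are wide.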
